A study of Mus musculus with 8 samples.

Results

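The interferon-stimulated genes and GTPases described here are a list of 37 mouse genes, 27 counted as targets mainly of type I interferon and 10 as targets mainly of type II interferon, among 21375 named genes on the array. The members were chosen by gene name: 34 were found under the array's own gene name, older names included, 2 (Irf9 and Irgm2) were found through their RefSeq accession because the array calls them Isgf3g and Iigp2, and Xaf1 was not matched. The list was measured in RNA from the hearts of 8 male mice aged 12 weeks, 4 wild-type (WT) mice and 4 mice labelled as PKR2 overexpressing. PKR2 is taken to be the receptor of the prokineticin peptides encoded by Prokr2, a member of the G protein-coupled class. The labels name neither a strain nor the promoter or cell type that drives the receptor, so where in the heart it was overexpressed is not known from them. Each heart was hybridised to its own 1-colour Agilent array, and WT 1 to 4 and PKR2 1 to 4 number the hearts of each group with no pairing between them.

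Type I interferons bind the receptor pair Ifnar1 and Ifnar2, and the kinases Jak1 and Tyk2 then switch on ISGF3, a complex holding Stat2 and Irf9 that binds the interferon-stimulated response element (ISRE) of antiviral genes. Type II interferon (interferon gamma) binds Ifngr1 and Ifngr2, and its signal acts through the gamma-activated site (GAS) and raises Irf1, which in turn binds ISRE-like sequences. The guanylate-binding proteins (GBPs) and immunity-related GTPases (IRGs) are large families of interferon-induced GTPases that attack the vacuoles of intracellular parasites and bacteria. Most genes of either class respond to both interferons, so the split between type I and type II is one of emphasis.

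Levels are log2 signal relative to the 75th percentile of each array's probes, differences are PKR2 minus WT on that log2 scale, and means are given ± SD with n = 4 hearts. A feature is a gene, represented by its brightest probe, or a probe without a gene symbol. Features entered the test when 3 or more of the 4 arrays of either group showed them well above background. Of the members, 34 were tested, 24 of type I and 10 of type II. Mx1 was above background on 1 PKR2 array and no WT array, and Oas3 on none, so neither was tested. The test was limma with Benjamini-Hochberg adjustment over all 15658 features, at an adjusted p of 0.05.

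The tissue label fitted its markers: all 9 cardiomyocyte genes listed (Myh6, Myl2, Tnnt2 and others) were tested, with a summed level of 2768 to 3489 times the 75th percentile in WT and 2896 to 4176 in PKR2 hearts. Spots well above background made up 48.3% (WT 2) to 67.1% (PKR2 1) of an array, and levels correlated between arrays, across features, at 0.965 to 0.991. The 8 arrays lay on 6 slides. Slide 5 held WT 3 and PKR2 3, slide 6 held WT 4 and PKR2 4, and the others held 1 array of this series each. The scanner used its low range alone for WT 2, WT 4 and PKR2 4, and an extended range for the rest. In whole hearts, fewer cells of a type and less RNA per cell cannot be told apart.

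None of the 34 tested members passed the adjusted threshold, as was the case for all features (0% called, and the smallest adjusted p of any feature was 0.0747). Every member's adjusted p in limma was 1.0. Without adjustment, 2 members (Igtp and Ifi27l2a) had p under 0.05 with the lower mean in PKR2 hearts, against 1.41% of all features, and 0 members had p under 0.05 with the higher mean, against 0.958%. Lower mean values in PKR2 were found for 25 of the 34 members (73.5%), against 51.9% of all features. The type II members had 9 of 10 lower means (6 of 10 under normexp background correction), with a median difference of -0.43 and a range of -0.67 to 0.10. That median was -0.087 under normexp and -0.14 without WT 4, and 9 of 10 means were lower under quantile normalization, median scaling and in the authors' deposited values. The shifts under normexp went with level. Differences of bright members mostly moved up (Ifitm3 from -0.13 to 0.36). Those of dim members mostly moved down (Ddx58 from -0.04 to -0.43). The type I members had 16 of 24 lower means, with a median difference of -0.02 and a range of -2.10 to 0.43. The median over all features was -0.01. The array number limits what could be seen: half-widths of the 95% intervals had a median of 0.57 over the members, against 0.48 over all features.

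**Figure D1:**
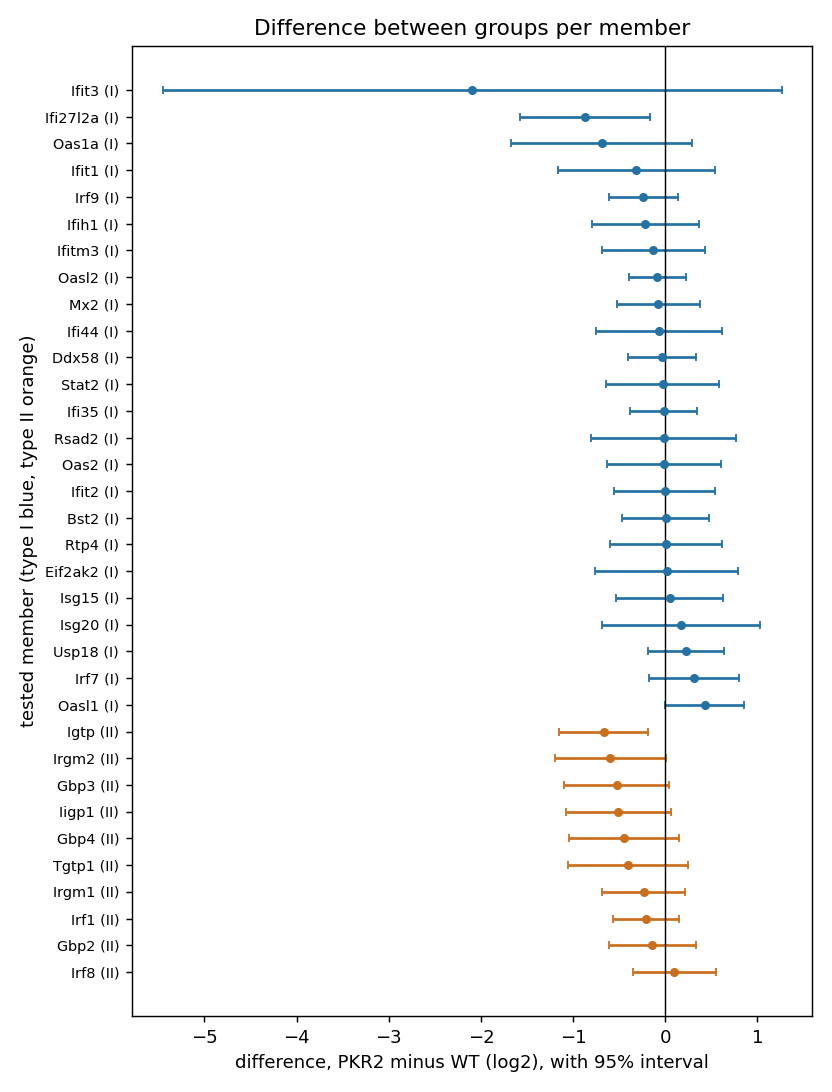
Each point is the difference in mean log2 level, PKR2 minus WT, of 1 tested member, with its 95% interval from limma (n = 4 hearts per group). Most type I members (blue) spread around 0. Among the exceptions, Ifit3 has a wide interval, Oas1a lies at -0.69, and Ifi27l2a (-0.87, interval -1.58 to -0.16) lies wholly below 0. Oasl1 lies the other way, at 0.43, with an interval that just reaches 0. Of the 10 type II members (orange), 9 lie below 0 (6 of 10 under normexp), most with intervals that reach past 0.

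The IRG family held the type II members with the lowest p. Igtp (also Irgm3), an IRG that guards membranes of the cell's own organelles, had levels of 3.75, 3.52, 3.61 and 4.45 in WT 1 to 4 and of 3.08, 3.33, 3.20 and 3.04 in PKR2 1 to 4. Every PKR2 heart lay below every WT heart, and WT 4 stood highest. The means were 3.83 ± 0.42 in WT and 3.16 ± 0.13 in PKR2, a difference of -0.67 (SE 0.21, 95% interval -1.15 to -0.19) or 1.59-fold lower in PKR2. Under normexp the difference was -0.27 (SE 0.32). Its unadjusted p was 0.0116 and its adjusted p 1.0 in limma, and the two-sided exact permutation test gave 0.0286, the smallest value that 70 relabelings of 4 against 4 hearts allow.

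Irgm2, a regulatory IRG of the same kind, had levels of 3.30, 3.15, 3.12 and 4.36 in WT hearts and of 2.70, 2.95, 3.01 and 2.90 in PKR2 hearts. Its groups did not overlap either, though WT 3 and PKR2 3 were 0.11 apart. The difference in means (3.49 ± 0.59 against 2.89 ± 0.14) was -0.60 (SE 0.27, adjusted p 1.0 in limma), 1.51-fold lower in PKR2, with an exact permutation p of 0.0286. Under normexp it was -0.31. Igtp and Irgm2 were the 2 members whose groups did not overlap with PKR2 lower, against 0.862% of all features.

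The effector IRG Iigp1 (Irga6), which coats parasite vacuoles, had levels of 4.46, 4.64, 4.88 and 5.24 in WT hearts and of 3.91, 4.90, 4.36 and 4.01 in PKR2 hearts, so that PKR2 2 exceeded 3 of the WT hearts. The means were 4.81 ± 0.33 and 4.30 ± 0.45, a difference of -0.51 (SE 0.25, adjusted p 1.0 in limma), or -0.098 under normexp. Tgtp1 (Irgb6), another effector, read 1.51, 1.95, 1.47 and 2.86 in WT hearts and 1.60, 1.35, 1.62 and 1.60 in PKR2 hearts, and its means differed by -0.41 (SE 0.29) that WT 4 carried. Its near-identical neighbour Tgtp2 may share this probe, so the value is uncertain between the copies, and a dimmer Tgtp1 probe, too dim to test, differed by 0.07. Irgm1, the regulatory IRG best known for its part in autophagy, read 1.48, 1.47, 1.73 and 2.28 against 1.34, 1.53, 1.55 and 1.61, a difference of -0.23 (SE 0.20). All 5 IRGs had their highest value in WT 4, and all 5 had lower PKR2 means, except that Irgm1 differed by 0.15 under normexp.

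The GBPs had lower PKR2 means in 3 of 3 members, none of them past the threshold, except that Gbp2 differed by 0.19 under normexp and by 0.03 without WT 4. Gbp3, a GBP of the chromosome 3 cluster, had levels of 1.95, 2.92, 2.70 and 2.71 in WT hearts and of 1.60, 2.44, 2.20 and 1.94 in PKR2 hearts. WT 1 and PKR2 1 were the lowest of their groups, and the groups overlapped through WT 1 alone. The means were 2.57 ± 0.43 and 2.04 ± 0.36, a difference of -0.53 (SE 0.25, unadjusted p 0.0663, adjusted p 1.0 in limma), or -0.098 under normexp. Gbp2, a GBP that gathers on pathogen vacuoles, differed by -0.14 (SE 0.21), and Gbp4 by -0.45 (SE 0.27), with WT 4 the highest heart in each (1.72 for Gbp2 and -0.43 for Gbp4).

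**Figure D2:**
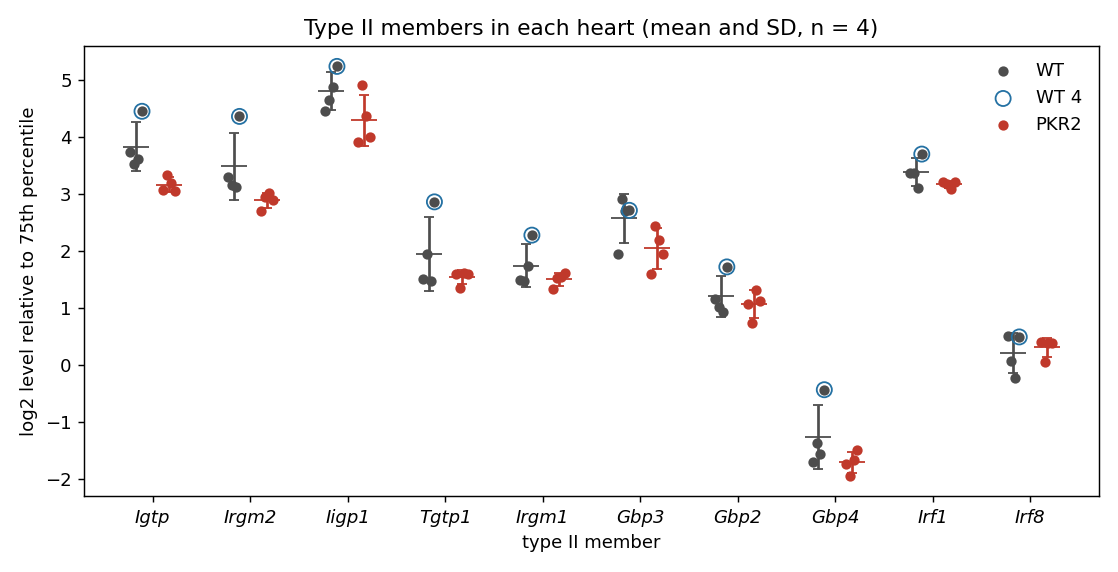
Log2 level, relative to the array's 75th percentile, of the 10 tested type II members in each heart, with the mean and SD of the 4 WT (grey) and 4 PKR2 (red) hearts and a blue ring around WT 4. WT 4 is the highest heart for 8 of the 10 genes, and the PKR2 hearts lie close together for Igtp, Irgm2, Irgm1 and Irf1.

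The promoters of Igtp, Irgm2 and Tgtp1, 3 of the 5 IRGs, each hold a GAS match shortly before an ISRE match. Printed here are 5 windows: Igtp and Irgm2, whose groups did not overlap, Tgtp1 and Gbp3 as further GTPases, and Isg15 as a type I member for comparison. Each window runs 5′ to 3′ along the gene, from 250 bases before to 50 bases after its start in RefSeq (mouse GRCm38.p6). The windows are chr11:58199306-58199605 (plus strand) for Igtp, chr11:58214727-58215026 (plus strand) for Irgm2, chr11:48992197-48992496 (minus strand) for Tgtp1, chr3:142559794-142560093 (plus strand) for Gbp3 and chr4:156200769-156201068 (minus strand) for Isg15. Capitals mark matches to the ISRE core (GAAA, any 2 bases, GAAA) or to the GAS core (TTC, any 3 bases, GAA), searched on both strands, with overlapping matches run together.
Igtp: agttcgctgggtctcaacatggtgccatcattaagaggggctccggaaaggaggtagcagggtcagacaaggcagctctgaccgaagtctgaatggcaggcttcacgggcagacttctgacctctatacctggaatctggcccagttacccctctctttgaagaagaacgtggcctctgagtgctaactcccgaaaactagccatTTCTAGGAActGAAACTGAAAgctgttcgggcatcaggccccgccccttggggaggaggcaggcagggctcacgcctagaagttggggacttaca
Irgm2: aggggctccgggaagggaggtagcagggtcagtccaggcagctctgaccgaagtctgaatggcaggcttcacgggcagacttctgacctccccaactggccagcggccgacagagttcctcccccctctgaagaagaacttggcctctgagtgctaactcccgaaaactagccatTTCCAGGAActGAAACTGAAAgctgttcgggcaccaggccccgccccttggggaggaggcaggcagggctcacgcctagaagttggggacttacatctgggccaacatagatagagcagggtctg
Tgtp1: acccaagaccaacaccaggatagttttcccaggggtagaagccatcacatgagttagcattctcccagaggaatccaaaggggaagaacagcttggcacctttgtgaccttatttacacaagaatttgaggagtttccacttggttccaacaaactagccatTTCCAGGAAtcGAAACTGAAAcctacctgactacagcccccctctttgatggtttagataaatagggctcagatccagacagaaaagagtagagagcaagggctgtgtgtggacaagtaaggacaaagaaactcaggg
Gbp3: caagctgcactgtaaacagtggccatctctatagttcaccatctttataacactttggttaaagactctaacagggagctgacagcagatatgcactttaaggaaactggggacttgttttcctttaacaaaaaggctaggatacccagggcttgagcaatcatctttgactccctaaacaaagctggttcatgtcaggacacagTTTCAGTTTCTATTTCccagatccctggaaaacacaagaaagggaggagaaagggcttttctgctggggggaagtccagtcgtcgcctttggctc
Isg15: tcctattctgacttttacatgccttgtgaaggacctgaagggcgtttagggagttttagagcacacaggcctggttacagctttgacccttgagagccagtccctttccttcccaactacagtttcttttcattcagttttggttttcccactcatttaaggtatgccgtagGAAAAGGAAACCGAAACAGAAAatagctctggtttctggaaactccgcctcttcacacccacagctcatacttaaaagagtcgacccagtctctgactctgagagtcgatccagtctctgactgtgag

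In Igtp a GAS match (TTCTAGGAA) starts at base -45 from the start site and an ISRE match (GAAACTGAAA) at -34. In Irgm2 the same ISRE letters start at -64 behind a GAS match (TTCCAGGAA) at -75, and in Tgtp1 they start at -77 behind the same GAS letters at -88. The GAS match thus began 11 bases before the ISRE match in each, a spacing noticed after the windows were seen, and 5 of 27025 genes with a window (0.0185%) have it. Igtp and Irgm2 shared an unbroken run of 61 bases, and Igtp and Tgtp1 one of 14, against 9 with Gbp3 and 7 with Isg15. The window of the IRG Irgm1 lacks this layout, with 2 ISRE matches and no GAS match, and Iigp1 has no window. Gbp3 has overlapping ISRE matches at -45 and -39, written on the opposite strand, and no GAS match. Isg15 has 3 overlapping ISRE matches at -78, -72 and -66 and no GAS match.

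Windows were found for 29 of the 37 members, and the 8 without one were Gbp4, Ifi27l2a, Iigp1, Mx1, Mx2, Oas2, Rtp4 and Usp18. The ISRE core was present in 6 of 8 type II windows (75%) and 12 of 21 type I windows (57.1%), against 3.99% of all genes. The GAS core was present in 5 of 8 type II windows (62.5%) and 7 of 21 type I windows (33.3%), against 9.55% of all genes. A match describes the letters only and is not evidence that a factor binds there.

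Neither type II regulator passed the threshold. Irf1, the transcription factor through which interferon gamma drives many of its targets, had levels of 3.36, 3.37, 3.10 and 3.70 in WT hearts and 3.22, 3.17, 3.09 and 3.21 in PKR2 hearts. The means were 3.38 ± 0.24 and 3.17 ± 0.06, a difference of -0.21 (SE 0.16, 95% interval -0.57 to 0.14, adjusted p 1.0 in limma). A dimmer Irf1 probe differed by 0.01, and under normexp the main probe differed by 0.18. Irf8, a factor of macrophages and dendritic cells that pairs with other factors on ISRE-like sites, read 0.51, 0.08, -0.23 and 0.49 in WT hearts and 0.41, 0.05, 0.39 and 0.38 in PKR2 hearts. It was the type II member with the higher PKR2 mean (0.31 ± 0.17 against 0.21 ± 0.35), by 0.10 (SE 0.20, adjusted p 1.0 in limma). A dimmer Irf8 probe differed by 0.34.

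WT 4 set much of the type II picture. It was the highest of the 8 hearts for 17 of the 34 members (50%), 8 of the 10 type II and 9 of the 24 type I members, against 19.9% of all features. The type II score of a heart, the mean over the 10 members of the level minus that gene's mean over the 8 hearts, was -0.03, 0.06, -0.03 and 0.73 in WT 1 to 4 and -0.29, -0.16, -0.10 and -0.18 in PKR2 1 to 4. The PKR2 hearts all lay below the WT hearts, but WT 1 to 3 lay within 0.10 of each other, far from WT 4. The group difference in this score was -0.36 with WT 4 and -0.18 without it. WT 4 had in addition the lowest level of Lars2 (4.30, against 7.67 to 10.62 in the other hearts) and of a probe assigned to the ribosomal RNA Rn28s1 (-3.50, against 0.07 to 1.94), genes picked after their values were seen. The part of RNA quality or labelling in the levels of WT 4 was not tested.

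With 1 heart of each group on a slide, the type II median was -0.11 for the pair on slide 5 and -0.91 for the pair on slide 6. Igtp differed by -0.41 on slide 5 and by -1.41 on slide 6, Irgm2 by -0.11 and -1.46, Iigp1 by -0.52 and -1.23, and Gbp3 by -0.50 and -0.77. Each of these 4 genes thus had the lower value in the PKR2 heart of either slide, by more on the slide of WT 4. Of the other type II members, Irf8 (0.62), Gbp2 (0.39) and Tgtp1 (0.15) had the higher value in the PKR2 heart of slide 5. All 4 PKR2 arrays sat at position 4 of their slide, as did WT 1 alone of the WT arrays. Group and array position thus coincide except in WT 1, and 1 heart is too few to separate them. In WT 1, Igtp (3.75), Irgm2 (3.30), Irf1 (3.36) and Irf8 (0.51) lay above their 4 PKR2 values. The other type II members lay within theirs, among them Gbp3 (1.95), Iigp1 (4.46) and Tgtp1 (1.51).

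The members spread differently within the groups. The median range over the 4 WT hearts was 0.87 for type II members and 0.92 for type I members, against 0.71 for all features. Over the 4 PKR2 hearts it was 0.34 for type II members, 0.84 for type I members and 0.61 for all features. The type II genes were thus more alike among the PKR2 hearts than the type I genes, a difference that was not tested.

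The type I members had lower PKR2 means in 16 of 24 genes, in 20 of 24 under median scaling, and in 14 of 24 under normexp, where their median was -0.080. Within slides their median was 0.04 on slide 5 and -0.36 on slide 6. With Ifit3 set aside (its PKR2 4 spot was not above background, as given with that gene), the type I score over 23 genes was 0.03, 0.002, -0.17 and 0.28 in WT hearts and -0.22, 0.10, -0.06 and 0.04 in PKR2 hearts, and its means differed by -0.07. The type II score minus this type I score was -0.06, 0.06, 0.13 and 0.45 in WT hearts and -0.07, -0.26, -0.04 and -0.21 in PKR2 hearts. The means were 0.15 ± 0.22 and -0.15 ± 0.11, a difference of -0.29, or -0.19 without WT 4 and -0.034 under normexp. WT 1 lay between PKR2 1 and PKR2 3, so the groups overlapped.

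**Figure D3:**
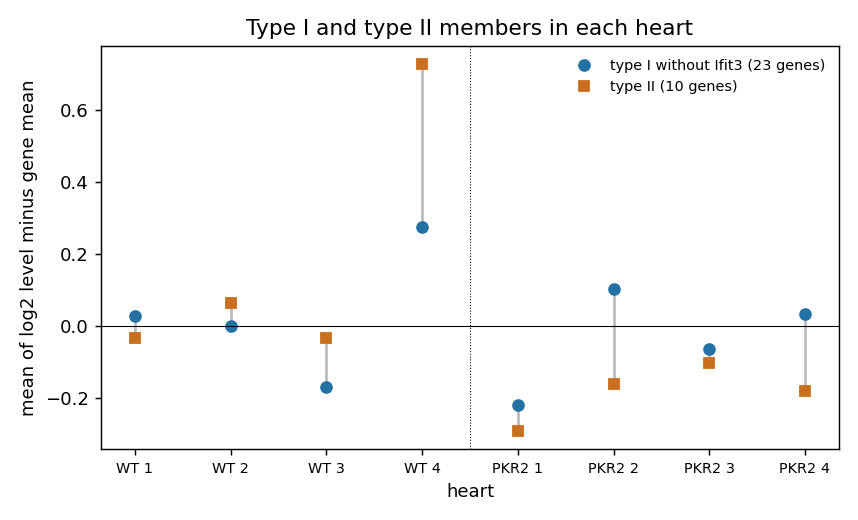
Mean over members of the log2 level minus each gene's mean over 8 hearts, for 23 type I members without Ifit3 (blue circles) and 10 type II members (orange squares), with a line joining the 2 scores of a heart. WT 4 has the highest score of either class, and in all 4 PKR2 hearts the type II score lies below the type I score.

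Among the type I regulators, Stat2 and Irf9 are parts of ISGF3, and Irf7 is the factor that amplifies type I interferon production. Irf9 had levels of 0.46, 0.83, 0.66 and 0.86 in WT hearts and of 0.21, 0.72, 0.41 and 0.51 in PKR2 hearts, and its means differed by -0.24 (SE 0.17, adjusted p 1.0 in limma) between overlapping groups. A dimmer Irf9 probe differed by -0.04. Stat2 read 0.64, 1.12, 0.84 and -0.03 in WT hearts and 0.26, 1.13, 0.49 and 0.58 in PKR2 hearts. WT 4, the highest heart for all 5 IRGs, was thus the lowest for Stat2, whose difference was -0.03 (SE 0.27, 95% interval -0.64 to 0.58, adjusted p 1.0 in limma). Irf7 read -0.86, -0.99, -1.78 and -1.24 against -0.67, -0.82, -1.03 and -1.11, a difference of 0.31 (SE 0.22, adjusted p 1.0 in limma), WT 3 lying apart at the low end.

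None of the 3 sensors of foreign RNA passed the threshold. Ifih1 (MDA5), which detects long double-stranded RNA, had a difference of -0.22 (SE 0.26). Ddx58 (RIG-I), which detects RNA with a triphosphate end, lay between -1.73 and -1.20 in all hearts and differed by -0.04 (SE 0.16), although its 2 dimmer tested probes differed by -0.25 and 0.38. Eif2ak2, the RNA-activated kinase PKR that halts translation and is unrelated to the receptor PKR2, read -0.54, -1.61, -1.78 and -0.64 in WT hearts and -0.65, -1.83, -1.02 and -1.0 in PKR2 hearts. Its range among WT hearts exceeded 1 log2 unit, and its group difference was 0.01 (SE 0.35).

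The IFIT proteins bind viral RNA and block its translation. Ifit2 had its values in nearly the same order as Eif2ak2, with -0.59, -1.27, -1.32 and -0.62 in WT hearts and -0.56, -1.39, -0.88 and -1.0 in PKR2 hearts, and a difference of -0.01 (SE 0.24). WT 1, WT 4 and PKR2 1 were the highest 3 hearts for both genes. Ifit1 ran otherwise, at -1.29, -0.29, -0.40 and -0.27 in WT hearts and -1.92, -0.13, -0.54 and -0.91 in PKR2 hearts, with WT 1 and PKR2 1 lowest and a difference of -0.31 (SE 0.38).

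Ifit3 gave the largest difference in size of any member, and it rested on the spot of PKR2 4. Its levels were 1.42, 0.76, 0.71 and 1.66 in WT hearts and 1.42, -0.32, 1.48 and -6.40 in PKR2 hearts. The PKR2 4 spot was called not above background. The authors' deposited value for it was 253, against 610 to 1881 in the other hearts and a median of 139 on that array. Why it read so low was not tested. With that spot the difference was -2.10 (SE 1.5, adjusted p 1.0 in limma), or -0.82 in the authors' deposited values and -0.54 under normexp. Without it the difference was -0.28 (SE 0.46, 95% interval -1.33 to 0.77, adjusted p 1.0 in limma), between 1.14 ± 0.48 in WT and 0.86 ± 1.02 in 3 PKR2 hearts. The near-identical Ifit3b may share the probe.

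The OAS enzymes make short oligoadenylates when they meet double-stranded RNA. Oas1a had levels of -1.43, -1.31, -1.31 and -0.65 in WT hearts and of -1.99, -3.22, -0.99 and -1.27 in PKR2 hearts, and its means differed by -0.69 (SE 0.44, adjusted p 1.0 in limma) that PKR2 2 carried: without that heart it was -0.24. Mouse Oas1a has many close paralogs, so which of them the probe reads is uncertain. Oas2 differed by -0.01 (SE 0.28) and Oasl2 by -0.09 (SE 0.14). Oasl1, an OAS-like protein that limits the translation of Irf7 in mice, was the type I member with the largest higher PKR2 mean, at -2.25, -2.49, -2.57 and -1.91 in WT hearts and -1.81, -1.62, -2.10 and -1.98 in PKR2 hearts. Its difference was 0.43 (SE 0.19, unadjusted p 0.0503, adjusted p 1.0 in limma, exact permutation p 0.0857), with the groups overlapping through WT 4. Under normexp background correction its difference was -0.16.

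The Mx proteins are dynamin-like GTPases that trap viral nucleocapsids. Mx2 ran from -1.48 to -1.07 in WT hearts and from -1.76 to -1.03 in PKR2 hearts, and its means differed by -0.08 (SE 0.20). Mx1 gave signals of -6.18 to -5.05 and Oas3 of -5.96 to -4.60, which were not well above background on most or all arrays and have no usable order. Many inbred mouse strains carry a defective Mx1 gene, and the labels do not name the strain here. Isg15, a ubiquitin-like protein joined to other proteins during infection, differed by 0.05 (SE 0.26), though the files place its probe on chromosome 17 and RefSeq the gene on chromosome 4, so the probe's identity is uncertain. Usp18, the protease that removes it and dampens the type I receptor, differed by 0.22 (SE 0.18).

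**Figure D4:**
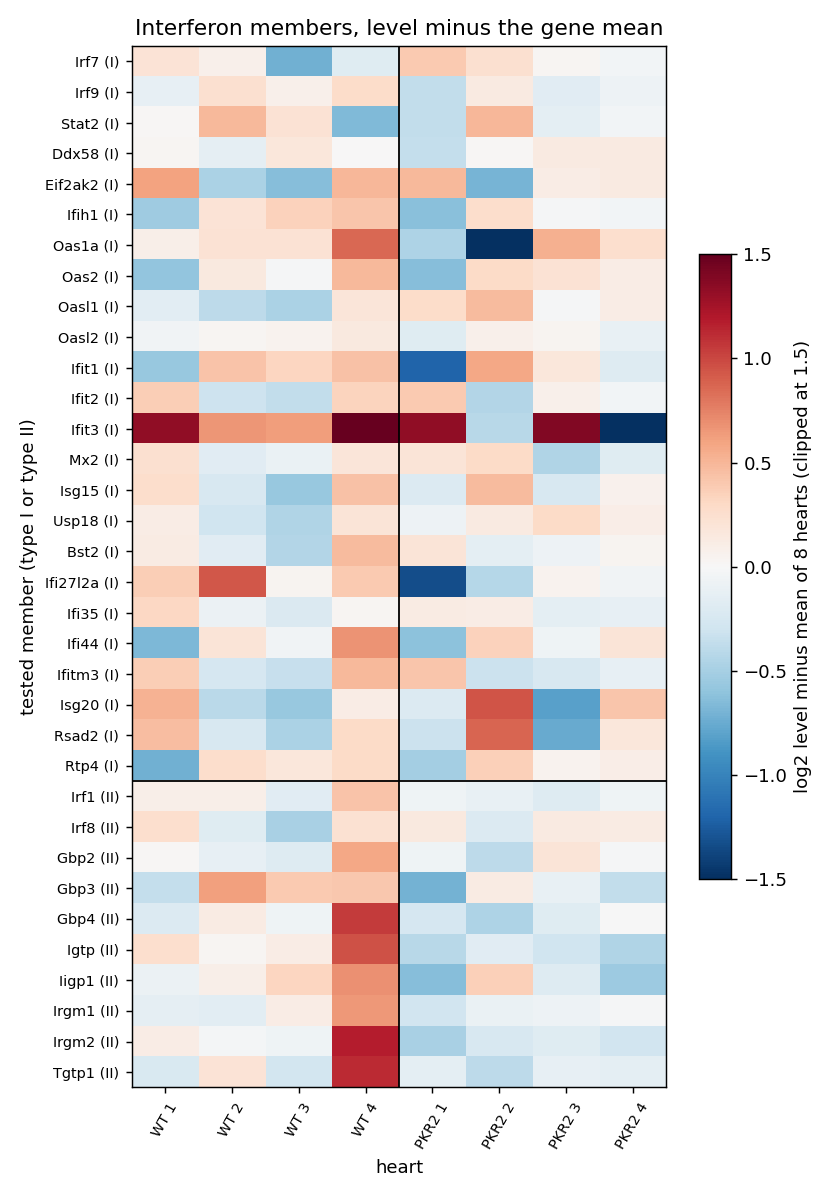
Log2 level of each tested member minus its mean over the 8 hearts (red higher, blue lower, clipped at 1.5), with type I members above the horizontal line and type II members below it. WT 4 is red across most type II members, WT 1 and PKR2 1 are blue for Ifit1, Ifi44, Ifih1 and Rtp4, and PKR2 2 is red for Rsad2 and Isg20.

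Ifi27l2a had the lowest p of the type I members. It encodes a small hydrophobic interferon-induced protein, and the array names its probes Ifi27. The levels were 4.81, 5.37, 4.48 and 4.84 in WT hearts and 3.11, 4.01, 4.50 and 4.39 in PKR2 hearts, with PKR2 1 and PKR2 2 lowest and an overlap between WT 3 and PKR2 3 alone. The means were 4.87 ± 0.37 and 4.00 ± 0.63, a difference of -0.87 (SE 0.31, unadjusted p 0.0208, adjusted p 1.0 in limma, exact permutation p 0.0571), 1.83-fold lower in PKR2. The 2 other probes that the array calls Ifi27 each differed by -0.77, and the accession of 1 of them belongs to RefSeq's Ifi27, a neighbouring gene. The pair on slide 5 differed by 0.01 and the pair on slide 6 by -0.44.

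A further probe assigned to RefSeq's Ifi27, which the array calls D12Ertd647e and the name rule thus leaves out, had levels of 5.40, 5.21, 4.64 and 5.34 in WT hearts and 3.67, 4.30, 4.56 and 4.35 in PKR2 hearts. Its groups did not overlap, though WT 3 and PKR2 3 were again the closest. The means of 5.15 ± 0.35 and 4.22 ± 0.38 gave a difference of -0.93 (SE 0.24, unadjusted p 0.00343, adjusted p 1.0 in limma). Its probe lies at chr12:103841193-103841252 and that of Ifi27l2a at chr12:103843234-103843293 (mm8, per the file headers).

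Adipocyte markers had lower values in the same hearts as the Ifi27 genes. All 9 tested adipocyte genes of 10 listed (Adipoq, Plin1, Ucp1 and others) had lower PKR2 means, with a median difference of -2.18. Their summed level ran from 178 to 446 times the 75th percentile in WT hearts and from 46.6 to 234 in PKR2 hearts, lowest in PKR2 1 (46.6) and PKR2 2 (55.0), the hearts with the lowest Ifi27l2a. All 7 mesothelial markers had lower PKR2 means too, with a median of -0.30. Their part in the levels of Ifi27l2a, Ifi27 or the GTPases was not tested.

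Rsad2 (viperin), a radical enzyme that makes a chain-terminating nucleotide, and Isg20, an RNA exonuclease, followed each other across hearts without regard to group. Rsad2 had levels of 2.48, 1.78, 1.55 and 2.31 in WT hearts and of 1.70, 2.90, 1.27 and 2.19 in PKR2 hearts. Isg20 had levels of 2.32, 1.40, 1.24 and 1.92 in WT hearts and of 1.60, 2.74, 0.99 and 2.22 in PKR2 hearts. For both genes PKR2 2 was highest, WT 1 came next and PKR2 3 was lowest, and the group differences were -0.02 (SE 0.35) and 0.17 (SE 0.38). Under normexp these differences were 0.38 and 0.51. The dimmer Rsad2 probes differed by 0.16 and 0.30, and the dimmer Isg20 probe by 0.22. The erythroid gene Alas2, the first enzyme of haem synthesis in red cell precursors, read 6.12, 4.71, 4.58 and 4.98 in WT hearts and 5.12, 5.83, 4.01 and 5.51 in PKR2 hearts, and was set beside them after the values were seen. It too had WT 1 and PKR2 2 at the top and PKR2 3 at the bottom. Hba-a1, the other erythroid gene tested, was also highest in PKR2 2 and lowest in PKR2 3. Among WT hearts it ran otherwise, with WT 2 above WT 1 and WT 4 lowest. The part of blood cells left in the hearts in the Rsad2 and Isg20 levels was not tested.

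**Figure D5:**
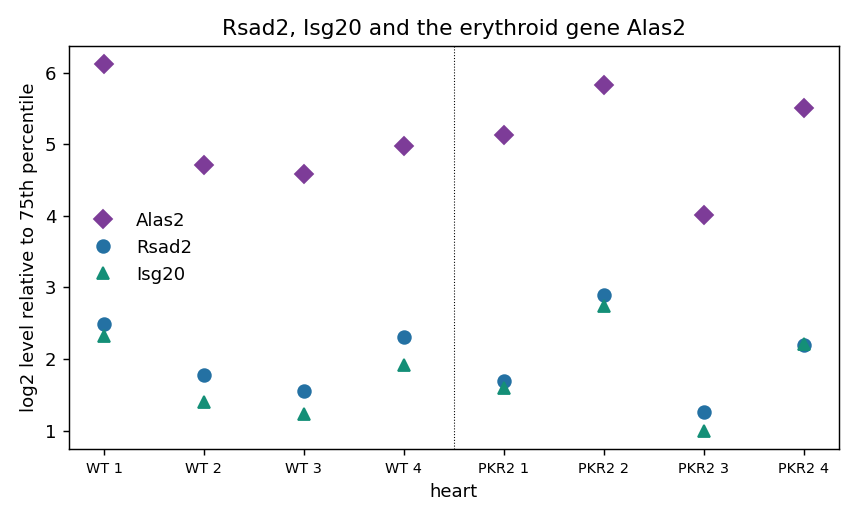
Log2 level, relative to the array's 75th percentile, of Rsad2, Isg20 and the erythroid gene Alas2 in each heart, with a line between the WT and PKR2 hearts. All 3 are high in WT 1 and PKR2 2 and lowest in PKR2 3, and neither group stands above the other.

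The remaining antiviral members differed little between the groups in the main processing, and none passed the threshold. Under normexp the differences were 0.36 for Ifitm3, 0.27 for Bst2, 0.18 for Rtp4, 0.15 for Ifi35 and -0.31 for Ifi44. Bst2 (tetherin), which holds budding virus at the cell surface, ran from 2.40 to 3.32 in WT hearts and from 2.69 to 3.03 in PKR2 hearts, and its means differed by 0.003 (SE 0.21). Ifitm3, a membrane protein that blocks viral fusion in endosomes, ran from 2.57 to 3.40 and from 2.59 to 3.33, a difference of -0.13 (SE 0.25). Ifi35 differed by -0.02 (SE 0.16). Rtp4, an interferon-induced regulator of RNA sensing, read 2.0, 2.99, 2.89 and 3.01 in WT hearts and 2.21, 3.09, 2.78 and 2.83 in PKR2 hearts, and its means differed by 0.005 (SE 0.27). Ifi44 read -1.33, -0.46, -0.71 and 0.02 in WT hearts and -1.27, -0.31, -0.73 and -0.46 in PKR2 hearts, and its means differed by -0.07 (SE 0.30). Rtp4, Ifi44 and Ifit1 were lowest in WT 1 and PKR2 1, which were also the hearts with the lowest summed level of 8 endothelial markers (46.0 and 44.0, against 55.2 to 75.3 in the others). The markers did not go one way, since Pecam1 was highest in WT 1 (0.86) and PKR2 1 (0.95), as was Tek (0.84 and 0.85). The part of endothelial content in these genes was not tested.

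Upstream of the members, all 4 receptor genes listed were well above background on all arrays, and the ligand genes on almost none. Of 41 further pathway genes listed, 40 were on the array under the names searched and 34 were tested, 13 with higher and 21 with lower PKR2 means and 0 past the threshold. The ligand genes Ifnb1, Ifng, Ifna2, Ifna4 and Ifnk were above background on no array, and Il28b on 1 PKR2 array. Ifngr1 lay between 4.63 and 5.71 over the 8 hearts, Ifngr2 between 4.16 and 4.83, Ifnar1 between 0.30 and 0.91 and Ifnar2 between 1.55 and 2.03. Ifnar2 differed by -0.20 (SE 0.14) and the immunoproteasome subunit Psmb9 by -0.28 (SE 0.21), each with an adjusted p of 1.0 in limma.

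The summed levels of immune cell markers, cells that could carry these transcripts, overlapped between the groups. The summed level of 10 macrophage markers was 26.4 to 42.1 in WT and 26.8 to 43.0 in PKR2 hearts, with 7 of 10 means lower in PKR2. Of 10 T and NK cell markers 6 were tested, with sums over the list of 0.702 to 0.969 and 0.736 to 1.06, and Gzmb was above background on no array. Of 4 B cell markers 3 were tested, with sums of 1.74 to 3.42 and 0.974 to 3.35, and Cd79a was above background on none. Of 4 neutrophil markers 2 were tested (S100a8 and S100a9), with sums of 1.55 to 6.24 and 1.47 to 15.7, and of 4 plasmacytoid dendritic cell markers 2 were tested, with sums of 9.68 to 14.5 and 10.05 to 13.2. Elane of the former and Siglech of the latter were above background on no array. WT 4, the highest heart for the IRGs, had the lowest macrophage sum (26.4) and a T and NK cell sum of 0.764 within the range of the other hearts. A sum is weighted to the brightest markers of its list. The part of immune cell content in the levels of the members was not tested.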

How the data were processed

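RNA from 8 mouse hearts was labelled with Cy3 and hybridised to 1-colour arrays, per the labels' protocols. Per the file headers, Agilent Feature Extraction 9.5.1.1 read the images, subtracted background and removed spatial trends. By the same headers, these scanner values are linear intensity per spot, not normalized between arrays, with probe positions on mm8. The value table that the authors deposited holds whole-number intensity of the same probes, linear and uncentred (column medians 139 to 144, log2 correlation with the scanner values of 0.991 to 0.998 over bright probes). How it was normalized is not given in the sources used here, and it served as an alternative.

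Control spots and outlier flags were left out, spots of a probe were averaged, and log2 processed signal was set relative to the array's 75th percentile. Probes well above background on at least 3 of 4 arrays of a group (22719 of 41174) were kept, and a gene was represented by its brightest probe. The 2 groups were set against each other in limma 3.58.1 (R 4.3.3, version 1.17.8 of data.table; lmFit and eBayes, no covariate, Benjamini-Hochberg adjustment over 15658 features), and the fit was tested on simulated data. For single genes an exact permutation test, two-sided, ran over the 70 relabelings. The labels name separate mice and nothing on litters or extraction days, so p-values measure the spread between these hearts.

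Members and lists were chosen with earlier results of these data known. Full statistics are given for members with unadjusted p under 0.05, filled to at least 6 type I and 4 type II members by smallest p, and for Stat2, Irf9, Irf7, Irf1 and Irf8. Other members are given by level and count, and of further pathway genes the 3 with the smallest p. A gene that this rule names is not reported here. Alternatives changed background correction (normexp, offset 50), scaling, source, probe filter, probe rule, slide or scan range as a block, variance model and threshold, or left out arrays. Leaving out the Ifit3 spot of PKR2 4 and using array gene names alone were chosen after seeing the data. A search of protein motifs was not run, as no protein sequences were used here.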

Additional observations from a re-analysis of the deposited data

Results flagged for a closer look

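Of 72 groups of 4 hearts examined (34 members and 2 class scores in each genotype), 7 had 1 heart whose gap to its nearest neighbour exceeded 0.829 of the group's whole range, Dixon's 95% value for 4 samples. Chance gives about 5% of groups, and the groups share hearts. WT 4 stood above the other WT hearts for Irgm2 (4.36 against 3.30 for the next, a gap of 0.8537 of the range), for Oas1a (-0.65 against -1.31, 0.843) and for the type II score (0.73 against 0.06, 0.872). WT 1 stood below the other WT hearts for Ifit1 (-1.29 against -0.40, 0.8778) and for Rtp4 (2.0 against 2.89, 0.8845). PKR2 2 stood below the other PKR2 hearts for Irf8 (0.05 against 0.38, 0.9269) and for Tgtp1 (1.35 against 1.60, 0.9273). Igtp and Irgm1, whose highest heart was also WT 4, did not reach that value.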

How the results depend on the processing

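No member passed an adjusted p of 0.05 under any alternative run, nor with a threshold of 0.1. The count over all features was 1, against 0, with median scaling, with probes above background on all arrays, with slide as a random block, with trended and robust variance, at a threshold of 0.1 and without PKR2 3, so that leaving out each heart gave 0 to 1. The type II median of -0.43 became -0.087 with normexp, -0.11 within slide 5 and -0.91 within slide 6, and ran from -0.57 (without WT 1) to -0.14 (without WT 4) as each heart was left out. The type I median of -0.02 became -0.36 within slide 6 and ran from -0.13 to 0.04 as each heart was left out. The direction changed for Ifit3 (0.77) and Oas1a (0.32) within slide 5, for Ifi27l2a within slide 5 (0.012), for Oasl1 with normexp (-0.16) and within slide 6 (-0.069), for Irf1 with normexp (0.18) and for Irf8 within slide 6 (-0.11). Stat2 was 0.13 with normexp, 0.13 with slide as a fixed block, 0.024 with it as a random block and 0.61 within slide 6. Leaving out each heart moved Stat2 from -0.26 to 0.13 and Irf8 from -0.050 to 0.195. The cause of these changes was not tested. Igtp kept its direction as each heart was left out, from -0.77 to -0.46, Irgm2 from -0.72 to -0.30 (the latter without WT 4), Gbp3 from -0.73 to -0.38 and Ifi27l2a from -1.03 to -0.57, and normexp gave -0.27, -0.31, -0.098 and -0.47 for these 4 genes. The share of members with lower PKR2 means was 58.8% with normexp, 85.3% with median scaling (which moved the median of all features to -0.06), 52.9% within slide 5, 88.2% within slide 6, 55.9% without WT 4 and 50% without both arrays of slide 6. No pairing by replicate number was possible because the labels give the hearts none, and the 2 slides that hold both groups gave the block and within-slide values. Normexp used an offset of 50, while the 75th percentile of processed signal ran from 40.9 on WT 2 to 766 on PKR2 1. It was also low on WT 4 (116) and PKR2 4 (87.0), against 318 or more on the other arrays. The low-signal arrays thus fell unevenly between the groups. The part of the offset in the normexp differences was not tested. The number of arrays and the signal over background limit the dim members: Mx1 and Oas3 could not be ranked, and 6 of 10 T and NK cell markers alone were bright enough to test.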

Other observations

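PKR2 2 was the highest of the 8 hearts for 8 type I members and no type II member (23.5% of the members, against 16.3% of all features). PKR2 4 was the highest for 0 of the 34 members, against 4.98% of all features. WT 3 was the lowest heart for 8 of the 34 members and PKR2 1 for 11, against 12.1% and 15.8% of all features. The haemoglobin gene Hba-a1 read 9.79, 10.07, 9.42 and 9.13 in WT hearts and 9.28, 10.93, 8.86 and 9.52 in PKR2 hearts, highest in PKR2 2 and lowest in PKR2 3, as were Rsad2 and Isg20. Among WT hearts Hba-a1 was highest in WT 2 and lowest in WT 4, unlike those genes, which were highest in WT 1 and lowest in WT 3. The neutrophil sum was also highest in PKR2 2 (15.7, against 1.47 to 7.03 in the other hearts).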
